A study of Mus musculus with 8 samples.

Results

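Cytochrome P450 genes of mouse renal cortex were compared between mice lacking SPAK and wild-type littermates. SPAK, encoded by Stk39, is a kinase that activates the NaCl cotransporter in the distal convoluted tubule, the target of thiazide diuretics. The genes were taken from the array annotation. Each had a probe set with 1 gene symbol, made of Cyp, a family number, a subfamily letter and a gene number. Pseudogenes, Cyp24a1 and Cyp27b1 were left out. This gave 82 of the 19938 genes measured, in 34 subfamilies of 14 families, and each of the 82 had exactly 1 such probe set. The values are log2 RMA expression values, 1 per probe set and array, and a difference is always SPAK KO minus WT on that log2 scale.

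The SPAK KO group held 4 arrays and the WT group 4 arrays, 1 per labelled mouse. Both genotypes were male mice of strain C57Bl6J, aged 10 weeks, and WT mice were littermates of the knockouts. All ate a diet with 0.32% NaCl and 1% KCl, and 6 µg of total RNA from dissected cortex was labelled per array. The study's design text asks which genes might together limit renal salt loss when SPAK is missing. Where in Stk39 the disruption lies, and in which cells, is not stated in the labels.

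P450 enzymes are haem proteins of the endoplasmic reticulum or mitochondria that insert oxygen into lipids, steroids and foreign compounds, using electrons passed on by partner reductases. In kidney they sit largely in the proximal tubule. There, Cyp4a enzymes hydroxylate the end of fatty acid chains, arachidonic acid included, and Cyp2c and Cyp2j enzymes turn arachidonic acid into epoxides. Both kinds of product act on tubular sodium transport and on vascular tone.

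The arrays agreed unequally. Among 6297 genes with a mean over 8, between 1 and 10 differed by more than 0.4 in the 6 pairs of SPAK KO arrays, against 3 between WT 2 and WT 3 and 119 to 228 in the other 5 WT pairs. WT 2 and WT 3 differed far less than the other WT pairs and were counted as 1 sample in WT means ± SD (n = 3). SPAK KO levels are given as array values with no SD, and the p-values of the fit over 8 arrays measure only the spread seen between these arrays. Array medians were 6.09 to 6.12 in SPAK KO and 6.13 to 6.19 in WT, a shift of -0.06. Stk39 read 7.21, 6.98, 6.79 and 7.10 on SPAK KO arrays 1 to 4 and 8.36, 8.51, 8.60 and 8.11 on WT arrays 1 to 4, a difference of -1.38 ± 0.11 (SE; limma adjusted p = 5.8e-04).

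Of the 82 P450 genes, 3 were higher in SPAK KO, 2 were lower, and 77 were not called (limma, Benjamini-Hochberg adjusted p under 0.05 over all genes). The 3 higher genes were Cyp2c23, an epoxygenase, Cyp26b1, which clears retinoic acid, and Cyp4a31. Both lower genes were Cyp4a12a and Cyp4a12b, fatty acid hydroxylases that androgen induces in male mouse kidney. Over all genes, 1.39% were called higher and 0.682% lower. Counts of 3 and 2 are small, and nothing particular to the P450 genes as a group is read from them. Their median difference was 0.0050, with 42 above 0 and 40 below, against a median of -0.01 over all genes. In bulk tissue, fewer cells of a type and less RNA per cell cannot be told apart.

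All 5 called genes, 3 higher and 2 lower, were among the 33 P450 genes whose mean over the arrays was at least 6. Of all 12001 genes with such a mean, 2.13% were called higher and 0.792% lower. The other 49 had means under 6, where RMA values carry no detection call, and none of them was called (5 of the 49 had an unadjusted p under 0.05, against 1221 of 7937 for all genes with such means). Of the 77 P450 genes not called, 12 had an unadjusted p under 0.05, 6 of them with a positive and 6 with a negative difference, against 3392 of all 19524 genes not called. For 39 of the 82, the difference was smaller than its own SE, against 8962 of all 19938 genes. Both shares were close to those of the whole array.

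**Figure D1:**
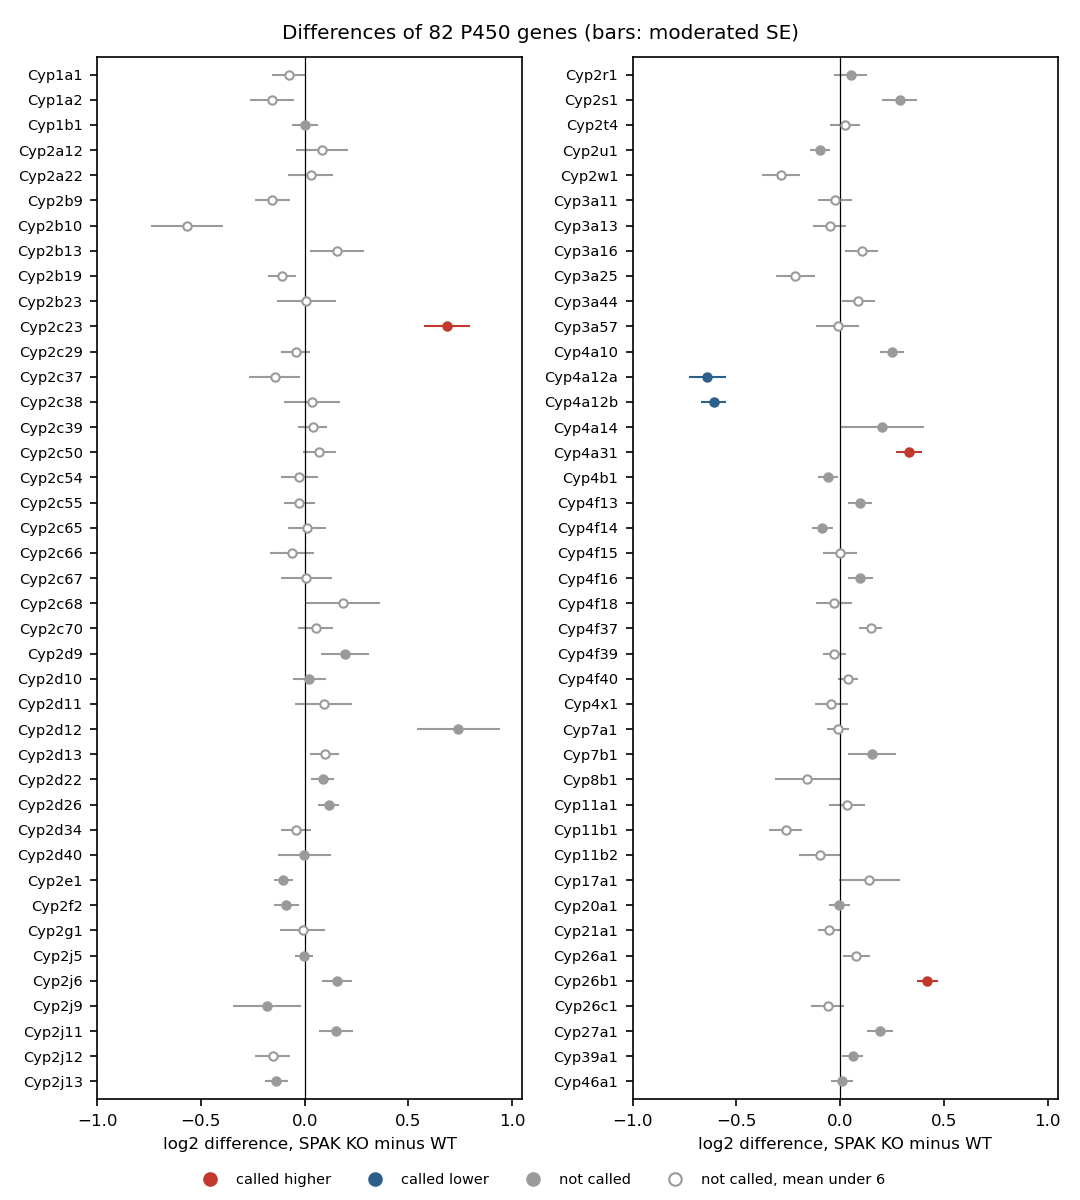
Log2 difference (SPAK KO minus WT) of each of the 82 P450 genes, 1 point per gene with its moderated SE as a bar, red where called higher, blue where called lower, grey where not called and open where the mean was under 6. Most points lie near 0, and the 5 called genes lie between -0.64 and 0.69.

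The count depended on how agreeing arrays and array medians were treated. With each array centred on its median, 7 P450 genes were higher and 2 lower. The added genes were Cyp27a1, Cyp2d12, Cyp2s1 and Cyp4a10, and 3.38% of all genes were then higher and 0.441% lower. Higher genes made up 88.4% of all calls with centring and 67.1% without it. With WT 2 and WT 3 averaged before the fit, 2 P450 genes were higher and 2 lower, since Cyp4a31 was no longer called, against 0.878% and 0.391% of all genes. When the SPAK KO arrays were also counted as 1 sample, limma called 0 of 82 P450 genes and 0% of all genes, while 6 P450 genes and 618 genes in all had an unadjusted p under 0.05. That fit sets 1 SPAK KO sample against 3 WT samples and does not call Stk39 either, so it cannot show whether the P450 calls hold.

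The Cyp4a subfamily held 3 of the 5 calls, in both directions. Its 5 measured genes lie in one cluster on chromosome 4, in the RefSeq order Cyp4a12a, Cyp4a12b, Cyp4a14, Cyp4a10, Cyp4a31, and none had a mean under 6. Of all genes with a mean of at least 6, 2.13% were called higher and 0.792% lower. Cyp4a12a and Cyp4a12b, near-identical neighbours, fell. Cyp4a31 rose, and its close relative Cyp4a10 missed the threshold. Probes for such close copies can bind the RNA of a neighbour, so the split of signal within each pair is uncertain. The calls of Cyp4a12a and Cyp4a12b may therefore not be separate.

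Cyp4a12a, the main arachidonic acid hydroxylase of male mouse kidney, read 11.13, 11.19, 11.22 and 11.19 on SPAK KO arrays 1 to 4 and 11.54, 11.99, 11.94 and 11.84 on WT arrays 1 to 4. Every SPAK KO array lay below every WT array. The difference was -0.64 ± 0.09, or 1.56-fold lower (limma adjusted p = 0.0067). Its WT level was 11.78 ± 0.22 (SD, n = 3).

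Cyp4a12b read 10.84, 11.00, 10.94 and 11.00 on the SPAK KO arrays and 11.45, 11.59, 11.65 and 11.55 on the WT arrays. The groups again did not overlap, and the spread among WT arrays was narrow. The difference was -0.61 ± 0.06, or 1.53-fold lower (limma adjusted p = 0.0015). Leaving out any 1 array kept both Cyp4a12 genes among the calls.

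Cyp4a31 ran the other way. It read 11.80, 11.84, 11.86 and 11.97 on the SPAK KO arrays and 11.48, 11.45, 11.53 and 11.69 on the WT arrays, with no overlap. The difference was 0.33 ± 0.06, or 1.26-fold higher (limma adjusted p = 0.030). This call was fragile: when each of the 8 arrays was left out in turn it passed 1 time, without WT 4, although the difference stayed between 0.30 and 0.38.

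Cyp4a10, a fatty acid hydroxylase induced through PPARα in mouse liver and kidney, read 11.00, 11.19, 11.09 and 11.21 on the SPAK KO arrays and 10.84, 10.82, 10.93 and 10.90 on the WT arrays. The groups did not overlap, but the difference of 0.25 ± 0.06 was not called (limma adjusted p = 0.067). A probe set annotated to Cyp4a10, Cyp4a31 and Cyp4a32 together, which was not counted as a member, read 11.80 to 11.91 in SPAK KO and 11.52 to 11.63 in WT. Its difference was 0.27 ± 0.05 (limma adjusted p over all probe sets = 0.054).

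Cyp4a14, another PPARα-responsive hydroxylase, differed most widely among WT arrays. It read 8.17, 8.02, 8.26 and 8.11 on the SPAK KO arrays and 8.55, 7.90, 7.99 and 7.31 on the WT arrays. The SPAK KO values lay inside the WT range, and the difference of 0.20 ± 0.20 was about as large as its SE (limma adjusted p = 0.616). It was -0.0049 without WT 4 and 0.41 without WT 1.

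**Figure D2:**
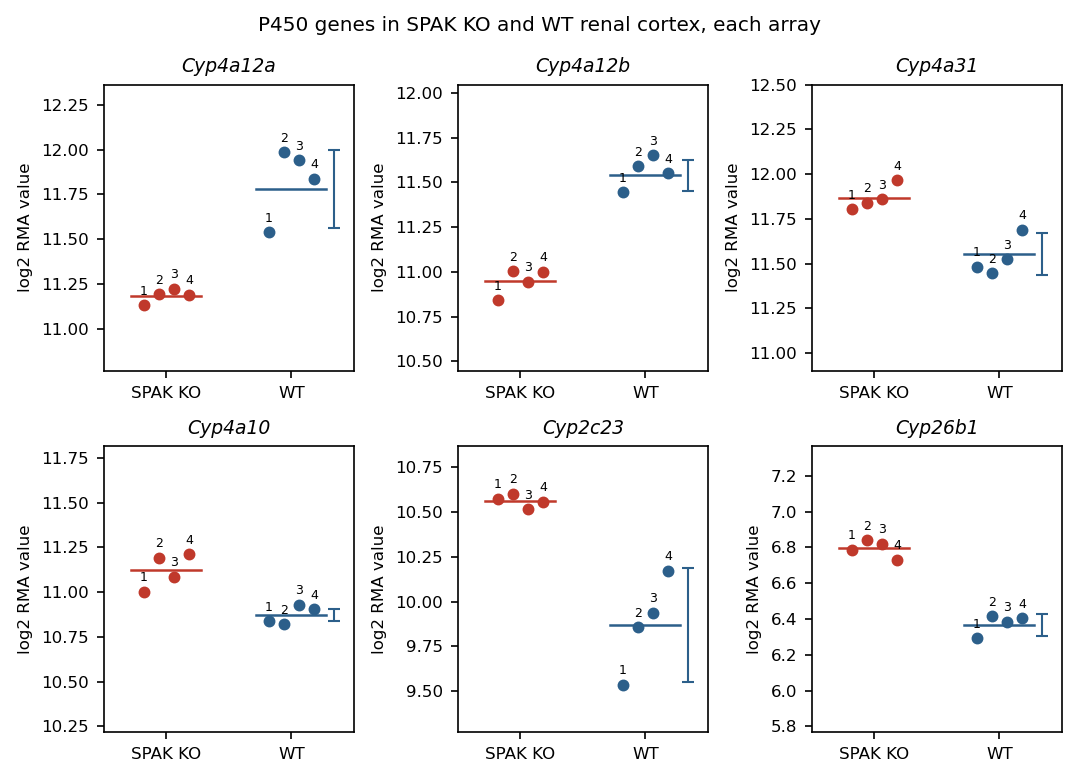
Log2 RMA values of the 5 called P450 genes and of Cyp4a10 on each array, SPAK KO left and WT right, with array numbers beside the points. Lines are the mean of 4 SPAK KO arrays and the WT mean with its SD (n = 3, WT 2 and WT 3 averaged), and SPAK KO lies below WT for Cyp4a12a and Cyp4a12b and above it in the other panels.

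Among the 13 Cyp2c genes, 1 was higher in SPAK KO and 0 lower, against 1.39% and 0.682% of all genes. That gene was Cyp2c23, listed in RefSeq with the synonym Cyp2c44, an arachidonic acid epoxygenase of the renal tubule. It read 10.58, 10.60, 10.51 and 10.56 on the SPAK KO arrays and 9.54, 9.86, 9.94 and 10.17 on the WT arrays. The SPAK KO values were tightly grouped above all WT values. Its difference was 0.69 ± 0.11, or 1.61-fold higher (limma adjusted p = 0.014), the largest among the called P450 genes in size. Without SPAK KO 1 the difference was 0.68 and was no longer called (limma adjusted p = 0.055). The other 12 Cyp2c genes, enzymes known mainly from liver and gut, all had means under 6 and differences from -0.15 to 0.18. Cyp2c38, the widest of these among WT arrays, read 2.88 to 3.39 in SPAK KO and 2.76 to 3.37 in WT.

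Cyp2d genes gave 0 calls among 9. Of the 9 differences, 7 were above 0, against 9125 of 19938 over all genes. In 3 of the 9 every SPAK KO array lay above every WT array, against 6.9% of all genes. These 3 were among the 6 Cyp2d genes with a mean of at least 6, where the count over all genes was 1293 of 12001. Cyp2d enzymes hydroxylate steroids and many drugs, and the mouse genome carries several close copies, so their probe sets may also share signal. Cyp2d12 had the largest difference of all 82 genes. It read 9.47, 9.42, 9.44 and 9.59 on the SPAK KO arrays and 8.83, 8.26, 8.46 and 9.41 on the WT arrays. WT 4 stood near the SPAK KO values and the other WT arrays well below them. The difference of 0.74 ± 0.20 was not called (limma adjusted p = 0.094). Without WT 4 it was 0.96 and was called (limma adjusted p = 0.0047).

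The other bright Cyp2d genes moved little. Cyp2d26 read 12.31 to 12.36 in SPAK KO and 12.13 to 12.29 in WT, and Cyp2d22 read 9.96 to 10.01 against 9.77 to 9.96. Both were above WT on every SPAK KO array, by 0.12 ± 0.05 and 0.09 ± 0.05, without being called (limma adjusted p = 0.248 and 0.408). Without WT 4 the Cyp2d22 difference was 0.04. Cyp2d9, a steroid hydroxylase that is higher in males in mouse liver, read 9.76 to 9.90 in SPAK KO and 9.34 to 9.95 in WT, a difference of 0.19 ± 0.11 that was 0.10 without WT 2 and 0.30 without WT 4. For Cyp2d40 the SPAK KO arrays spanned 5.85 to 6.26 and the WT arrays 5.79 to 6.35. Its difference was smaller than its SE.

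Cyp2j genes, which include renal epoxygenases, gave 0 calls among 6. Cyp2j5, an abundant epoxygenase of the mouse proximal tubule, read 12.68, 12.74, 12.74 and 12.71 on the SPAK KO arrays and 12.71, 12.70, 12.74 and 12.72 on the WT arrays. Its difference was under 0.01 in size, with an SE of 0.04. Cyp2j13 read 12.09 to 12.12 in SPAK KO and 12.14 to 12.36 in WT, with no overlap and a difference of -0.14 ± 0.05 (limma adjusted p = 0.216). Cyp2j11 read 11.60 to 11.72 against 11.29 to 11.69, and Cyp2j6 read 8.82 to 8.96 against 8.60 to 8.87, with differences of 0.15 ± 0.08 and 0.16 ± 0.07. Without WT 1 the Cyp2j11 difference was 0.08. Cyp2j9 read 8.54, 8.69, 8.62 and 8.78 on the SPAK KO arrays and 9.32, 8.53, 8.48 and 9.03 on the WT arrays. Its WT values lay on both sides of the SPAK KO values, and the difference was -0.18 ± 0.16 (limma adjusted p = 0.579). It was -0.02 without WT 1 and -0.30 without WT 3.

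All 5 Cyp2b genes had means under 6, and none was called. Cyp2b10, the classic target of the drug-sensing receptor CAR in mouse liver, read 5.22, 5.16, 5.29 and 4.97 on the SPAK KO arrays and 5.67, 5.56, 5.36 and 6.33 on the WT arrays. The groups did not overlap, and WT 4 was the highest. Its difference was -0.57 ± 0.17 (limma adjusted p = 0.123), and -0.37 without WT 4. Cyp2b23 also varied widely in WT, reading 5.26 to 5.61 in SPAK KO and 5.15 to 5.89 in WT. The 4 Cyp2b genes other than Cyp2b10 had differences from -0.16 to 0.16.

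The remaining 10 Cyp2 genes gave 0 calls, and their differences ran from -0.29 to 0.29. Cyp2s1, an enzyme of epithelia outside the liver, read 8.84, 8.998, 8.97 and 8.83 on the SPAK KO arrays and 8.87, 8.54, 8.56 and 8.53 on the WT arrays. WT 1 alone reached the SPAK KO range. The difference of 0.29 ± 0.08 was not called over 8 arrays (limma adjusted p = 0.111) and was 0.37 without WT 1 (limma adjusted p = 0.015).

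Cyp2e1, which oxidises ethanol and acetone and is androgen-responsive in mouse kidney, read 13.18 to 13.25 in SPAK KO and 13.26 to 13.34 in WT. The groups did not overlap, yet the difference of -0.10 ± 0.05 was small and not called (limma adjusted p = 0.254). Cyp2f2, known from naphthalene toxicity in mouse lung, read 7.30 to 7.32 in SPAK KO and 7.27 to 7.55 in WT. Cyp2u1, a fatty acid hydroxylase, read 7.27 to 7.33 against 7.32 to 7.45, and Cyp2r1, which hydroxylates vitamin D, read 6.03 to 6.46 against 6.15 to 6.23. Cyp2w1 read 5.42 to 5.74 in SPAK KO and 5.75 to 6.10 in WT, a difference of -0.29 ± 0.09 (limma adjusted p = 0.141). Cyp2a12, Cyp2g1 and Cyp2t4 had means under 6 and differences smaller than their SE.

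Of the 3 Cyp26 genes, whose enzymes inactivate retinoic acid, Cyp26b1 was higher in SPAK KO. It read 6.79, 6.84, 6.82 and 6.73 on the SPAK KO arrays and 6.29, 6.42, 6.38 and 6.40 on the WT arrays. The groups were clearly separate and each spanned little more than 0.1. The difference was 0.42 ± 0.05, or 1.34-fold higher (limma adjusted p = 0.0040), and it was called whichever of the 8 arrays was left out. Cyp26a1 read 4.23 to 4.42 in SPAK KO and 4.15 to 4.37 in WT, and Cyp26c1 read 5.74 to 6.13 against 5.88 to 6.04. Neither was called, and both had means under 6, where a change may go unmeasured.

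Among 10 measured partner genes of retinoic acid, 1 was higher in SPAK KO and 0 lower, against 1.39% and 0.682% of all genes. Of the 10 differences, called or not, 3 were above 0 and 7 below, against 9125 above and 10813 below over all genes. The called gene was Rarb, which encodes a retinoic acid receptor and is itself a textbook retinoic acid target. Rarb read 8.40, 8.34, 8.31 and 8.44 on the SPAK KO arrays and 7.84, 7.75, 7.80 and 7.92 on the WT arrays, with no overlap. Its difference was 0.55 ± 0.05 (limma adjusted p = 0.0016). Aldh1a1, which makes retinoic acid, read 5.97, 6.38, 6.26 and 6.20 on the SPAK KO arrays and 6.16, 7.88, 7.91 and 7.50 on the WT arrays. WT 1 lay among the SPAK KO values and the other WT arrays above them, and the difference of -1.16 ± 0.33 was not called (limma adjusted p = 0.104).

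The 100 bases before the annotated start of Cyp26b1, Cyp26a1 and Rarb are shown because Cyp26b1 and Rarb were both higher and Cyp26a1 is a known retinoic acid target. They come from RefSeq on build GRCm38.p6, 5′ to 3′ on the gene's strand, at chr6:84593811-84593910 (minus strand) for Cyp26b1, chr19:37697708-37697807 (plus strand) for Cyp26a1 and chr14:16575477-16575576 (minus strand) for Rarb. Capitals mark a particular spelling of a direct repeat typical of retinoic acid response elements, GTTCA and AGTTCA with any 5 bases between them. It was searched on both strands and chosen after the values were seen. Other spellings of such elements are not covered by the search.
Cyp26b1: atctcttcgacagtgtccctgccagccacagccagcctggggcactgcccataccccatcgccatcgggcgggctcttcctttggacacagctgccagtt
Cyp26a1: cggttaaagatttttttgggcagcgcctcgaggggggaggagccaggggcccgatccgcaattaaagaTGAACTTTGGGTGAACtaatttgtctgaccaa
Rarb: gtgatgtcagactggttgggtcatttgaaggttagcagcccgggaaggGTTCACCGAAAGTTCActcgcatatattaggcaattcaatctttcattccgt

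The repeat stood 52 to 37 bases before the start of Rarb, on the gene's strand, and 32 to 17 bases before the start of Cyp26a1, on the opposite strand. It was not found in the Cyp26b1 window. RefSeq windows, which run from 250 bases before a start to 50 after it, held it in 11 of 32851 cases (0.0335%). Since the spelling was chosen after the values were seen, this share does not test the matches. Windows were given for 61 of the 82 P450 genes, and Cyp26a1 was the 1 that held the repeat. A match or its absence describes these letters only. Cyp4a12a, Cyp4a12b, Cyp4a10, Cyp4a31 and Cyp2c23 had no window.

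P450 genes of sterol and bile acid metabolism gave no call. Cyp7b1, which hydroxylates oxysterols and steroids, read 9.51, 9.52, 9.51 and 9.48 on the SPAK KO arrays and 9.44, 9.46, 9.56 and 8.94 on the WT arrays. The groups overlapped, and WT 4 lay well below all other arrays. The difference was 0.15 ± 0.11 (limma adjusted p = 0.499) and was 0.02 without WT 4. Cyp27a1, the mitochondrial sterol hydroxylase, read 10.05, 10.01, 9.90 and 9.94 on the SPAK KO arrays and 9.91, 9.74, 9.70 and 9.78 on the WT arrays. Its difference of 0.19 ± 0.06 was not called unless arrays were centred (limma adjusted p = 0.135 as deposited and 0.046 centred).

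The other sterol enzymes differed by little. Cyp39a1, an oxysterol hydroxylase, read 7.81 to 7.86 in SPAK KO and 7.71 to 7.89 in WT, and Cyp46a1, which hydroxylates cholesterol in brain, read 5.97 to 6.06 against 5.95 to 6.09. Cyp7a1 and Cyp8b1, which direct bile acid synthesis in liver, had means under 6. Cyp7a1 read 3.49 to 3.61 in SPAK KO and 3.47 to 3.61 in WT, while Cyp8b1 read 5.02 to 5.43 against 5.06 to 5.80. Of 8 measured partner genes of bile acid and sterol metabolism, 0 were called, with differences from -0.17 to 0.13. The member with the smallest p was Slc27a5, a bile acid CoA ligase, at -0.16 ± 0.06 (limma adjusted p = 0.171).

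The 5 genes of adrenal steroid synthesis (Cyp11a1, Cyp11b1, Cyp11b2, Cyp17a1 and Cyp21a1) all had means under 6, and none was called. Cyp11b1, which makes corticosterone, read 4.31, 4.52, 4.39 and 4.33 on the SPAK KO arrays and 4.72, 4.75, 4.71 and 4.43 on the WT arrays. WT 4 alone overlapped the SPAK KO range. The difference was -0.26 ± 0.08 (limma adjusted p = 0.121), and without WT 4 it was -0.34 and was called (limma adjusted p = 0.025). Cyp17a1 read 4.77 to 5.05 in SPAK KO and 4.35 to 5.12 in WT. Cyp11a1 read 3.86 to 4.15 against 3.72 to 4.05, and Cyp21a1 read 4.63 to 4.81 against 4.71 to 4.85. Cyp11b2, aldosterone synthase, overlapped between the groups as well, with a difference of -0.10 ± 0.10. Of 5 other adrenal markers, 0 were called, all 5 had means under 6, and their mean level was 4.69 to 4.80 in SPAK KO and 4.78 to 4.91 in WT. The smallest p among them was that of Mrap, a partner of the corticotropin receptor (-0.22 ± 0.10, limma adjusted p = 0.264).

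The 10 Cyp4 genes outside Cyp4a gave no call. Cyp4b1, which oxidises fatty acids and aromatic amines, read 13.45, 13.48, 13.41 and 13.41 on the SPAK KO arrays and 13.47, 13.45, 13.51 and 13.56 on the WT arrays. It adjoins the Cyp4a cluster, and its difference of -0.06 ± 0.05 was close to 1 SE (limma adjusted p = 0.526). The 8 Cyp4f genes, hydroxylases of leukotrienes and long fatty acids, had differences from -0.09 to 0.15. Cyp4f13 read 9.73 to 9.81 in SPAK KO and 9.60 to 9.81 in WT, and Cyp4f16 read 7.01 to 7.07 against 6.81 to 7.07. Cyp4f37, with a mean under 6, read 4.11 to 4.18 against 3.86 to 4.07, with no overlap and a difference of 0.15 ± 0.06 (limma adjusted p = 0.197). Cyp4x1, at the far end of the cluster, read 4.13 to 4.49 in SPAK KO and 4.23 to 4.42 in WT.

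Foreign-compound enzymes of the Cyp1 and Cyp3a groups were low or flat. Cyp1b1 read 7.48 to 7.68 in SPAK KO and 7.46 to 7.65 in WT, and its difference was smaller than its SE. Cyp1a2, a target of the dioxin receptor in liver, read 3.61 to 4.02 against 3.77 to 4.10. All 6 Cyp3a genes had means under 6, with differences from -0.22 to 0.10. The lowest was that of Cyp3a25, which read 3.56 to 3.82 in SPAK KO and 3.74 to 4.18 in WT (-0.22 ± 0.09, limma adjusted p = 0.245; -0.14 without WT 1). Cyp20a1, a P450 of unsettled substrate, read 8.10 to 8.25 in SPAK KO and 8.15 to 8.23 in WT, a difference within its SE.

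Groups that do not overlap were counted over all P450 genes. In 8 genes every SPAK KO array lay above every WT array: Cyp26b1, Cyp2c23, Cyp2d12, Cyp2d22, Cyp2d26, Cyp4a10, Cyp4a31 and Cyp4f37. In 6 every SPAK KO array lay below: Cyp2b10, Cyp2e1, Cyp2j13, Cyp2w1, Cyp4a12a and Cyp4a12b. Over all genes the shares were 6.9% and 5.71%. Among the 33 P450 genes with a mean of at least 6, the counts were 7 above and 4 below. Among all 12001 genes with such a mean they were 1293 and 696, smaller shares both ways. The P450 counts are small, and nothing particular to the P450 genes as a group is read from them.

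The spread of each P450 gene was compared between the SPAK KO arrays and the WT arrays. Over the 33 with a mean of at least 6, the median range was 0.11 among the 4 SPAK KO arrays and 0.21 among the 4 WT arrays, and the WT range was the wider in 28 of 33. Over all genes with a mean of at least 6, the medians were 0.13 and 0.20 and the WT range was the wider in 8433 of 12001, so the whole array leaned the same way. The widest WT ranges were those of Cyp4a14, at 0.24 in SPAK KO and 1.24 in WT, and Cyp2d12, at 0.17 and 1.15. Cyp7b1 spanned 0.04 in SPAK KO and 0.62 in WT, and Cyp2c23 spanned 0.09 and 0.64.

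Different WT arrays lay at the ends of the WT range in different genes. Among the 4 WT arrays, WT 1 was the highest for 13 of the 33 genes and the lowest for 10. WT 2 was the highest for 7 and the lowest for 12, WT 3 the highest for 5 and the lowest for 5, and WT 4 was the highest for 8 and the lowest for 6. WT 4 was low for Cyp4a14 and Cyp7b1 but high for Cyp2d12, and WT 1 was high for Cyp4a14 and Cyp2j9. For Cyp7b1, WT 4 alone set the wide range. Below a mean of 6, the WT range was the wider in 24 of 49 P450 genes, against 4328 of 7937 over all genes.

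**Figure D3:**
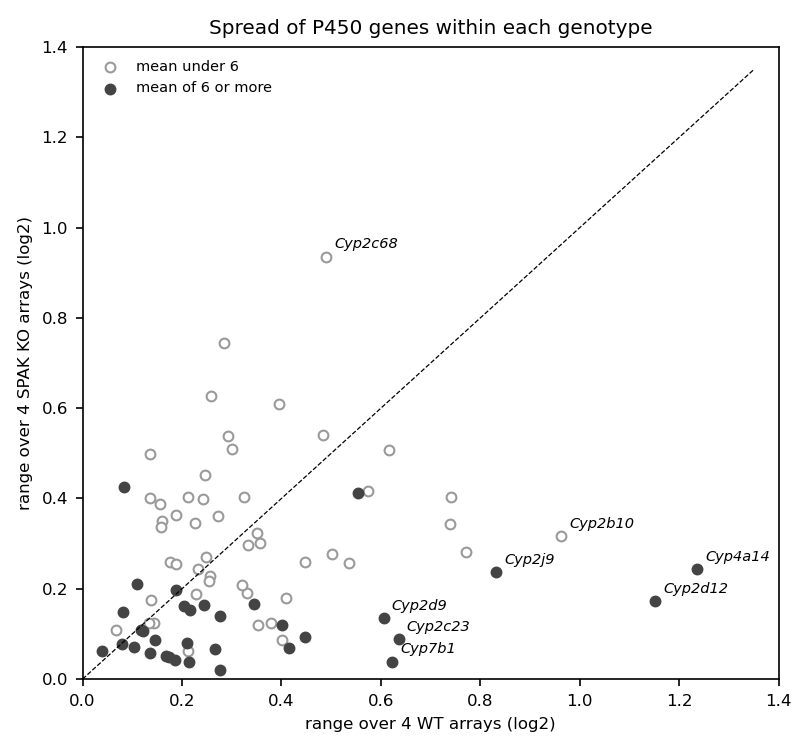
Range of each P450 gene over the 4 SPAK KO arrays (vertical, log2) against its range over the 4 WT arrays (horizontal, log2), filled where the mean was 6 or more and open below; the dashed line marks equal ranges. Most filled points lie under the line, with Cyp4a14 and Cyp2d12 at WT ranges of 1.24 and 1.15.

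**Figure D4:**
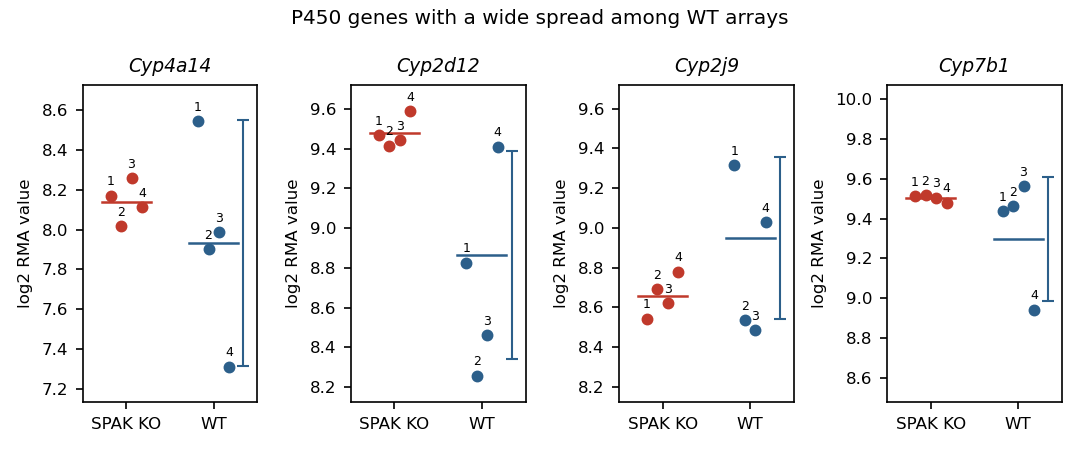
Log2 RMA values of Cyp4a14, Cyp2d12, Cyp2j9 and Cyp7b1 on each array, SPAK KO left and WT right, with array numbers beside the points, the mean of 4 SPAK KO arrays as a line and the WT mean with its SD (n = 3, WT 2 and WT 3 averaged). The SPAK KO arrays lie within 0.04 to 0.24 of each other and the WT arrays within 0.62 to 1.24.

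Genes that serve or control P450 enzymes changed in few cases. Of 7 measured electron donors and haem supply genes 0 were called, with differences from -0.08 to 0.15, and Por and Fdxr were not analysed here. Pgrmc1, a haem-binding partner of P450 enzymes, had the smallest p (0.15 ± 0.06, limma adjusted p = 0.188).

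Of 11 nuclear receptors and partners, 1 was higher and 0 lower, against 1.39% and 0.682% of all genes. Ppara, the fatty acid receptor that drives Cyp4a10 and Cyp4a14, read 10.09, 10.05, 10.04 and 10.08 on the SPAK KO arrays and 9.64, 9.81, 9.77 and 9.74 on the WT arrays. The groups did not overlap, and the difference was 0.33 ± 0.05 (limma adjusted p = 0.011). Its 10 measured target genes outside the P450 family gave 0 calls, with a median difference of 0.11 and 8 of 10 above 0. Over all genes the median was -0.01, with 9125 of 19938 above 0. Acot1, a fatty acyl-CoA thioesterase, had the smallest p (0.25 ± 0.07, limma adjusted p = 0.0996). The 5 measured targets of the dioxin receptor gave 0 calls, the smallest p being that of Nfe2l2 (0.17 ± 0.06, limma adjusted p = 0.137).

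Epoxide hydrolases and eicosanoid enzymes, which handle the products of Cyp2c and Cyp2j enzymes or compete for arachidonic acid, gave 0 calls among 12. Ephx1 read 9.28 to 9.41 in SPAK KO and 8.90 to 9.18 in WT, with a difference of 0.27 ± 0.07 (limma adjusted p = 0.081). Ephx2, the soluble hydrolase of arachidonic acid epoxides, differed by -0.15 ± 0.04 (limma adjusted p = 0.120).

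Androgen-regulated kidney genes moved in both directions. Of 5 measured, 1 was higher and 2 were lower in SPAK KO, against 2.13% and 0.792% of all genes with a mean of at least 6. Slco1a1, an organic anion transporter, differed by -0.62 ± 0.06 (limma adjusted p = 0.0012), and Odc1, the ornithine decarboxylase, by -0.48 ± 0.06 (limma adjusted p = 0.0046). Slc7a12, an amino acid transporter, differed by 1.33 ± 0.13 (limma adjusted p = 0.0015). Kap, the kidney androgen-regulated protein, differed by 0.02 and was not called. Of these, Slco1a1 and Odc1 lay on the same side as Cyp4a12a and Cyp4a12b, and Slc7a12 on the other. Kap and Slc22a7 (0.17 ± 0.18) differed by less than their SE. The part of androgen in the Cyp4a12a and Cyp4a12b results was not tested. The list does not separate genes that androgen raises from genes that it lowers. No direction of androgen action is therefore read from it.

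**Figure D5:**
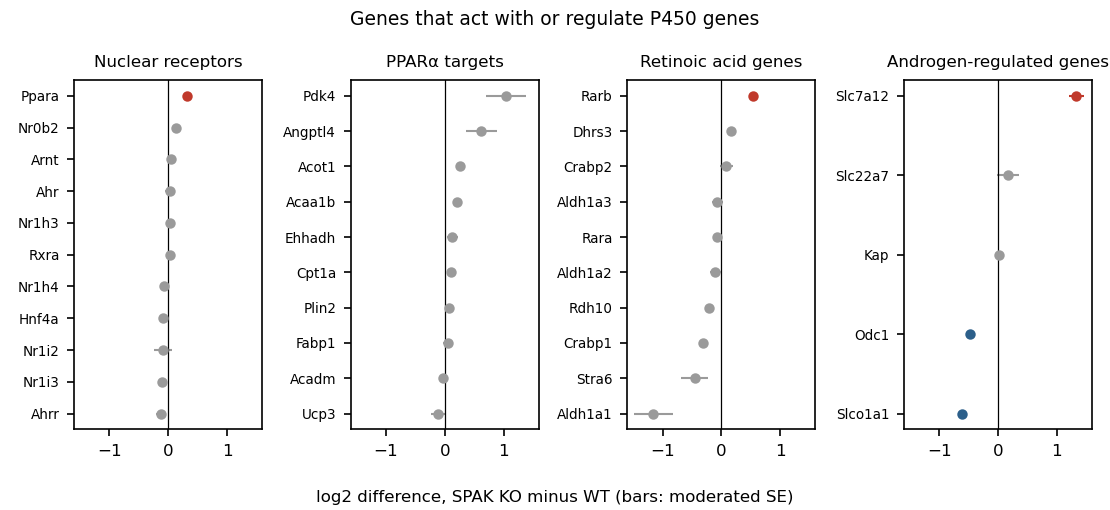
Log2 differences (SPAK KO minus WT, bars are the moderated SE) of the measured genes in 4 lists, red where called higher, blue where called lower and grey where not called. Ppara at 0.33, Rarb at 0.55 and Slc7a12 at 1.33 were called higher, and Odc1 at -0.48 and Slco1a1 at -0.62 lower.

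Markers of the cells that hold P450 enzymes were measured beside them. Of 9 markers of the early proximal tubule (S1 and S2), 1 was higher and 0 lower, and their mean level was 12.47 to 12.49 in SPAK KO and 12.41 to 12.45 in WT. The called marker was Aqp1, a water channel, at 0.34 ± 0.06 (limma adjusted p = 0.016). Of 7 markers of the late proximal tubule (S3), 1 was higher and 0 lower, with a mean level of 11.22 to 11.27 in SPAK KO and 11.04 to 11.24 in WT. That marker was Slc22a13, a urate and organic anion transporter, at 0.78 ± 0.07 (limma adjusted p = 0.0012). None of the 9 and 7 markers had a mean under 6. Of all genes with a mean of at least 6, 2.13% were called higher and 0.792% lower. The part of tubule segments in the P450 results was not tested.

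Markers of other cells gave few calls. Over all genes, 1.39% were called higher and 0.682% lower. Of 6 hepatocyte markers 0 were called, with a mean level of 7.92 to 7.98 in SPAK KO and 7.56 to 7.86 in WT, and Alb differed by 0.55 ± 0.13 (limma adjusted p = 0.067). Of 5 fat markers 1 was higher, Retn at 0.31 ± 0.07 (limma adjusted p = 0.047), and their mean level was 6.08 to 6.14 in SPAK KO and 5.82 to 5.97 in WT. Means under 6 were found for 4 of these 5, Retn included. Of 5 immune markers 1 was lower, Cd3e at -0.31 ± 0.06 (limma adjusted p = 0.044), with a mean level of 6.57 to 6.69 against 6.59 to 6.70. Endothelial markers gave 0 calls among 5, at 9.18 to 9.28 in SPAK KO and 9.23 to 9.28 in WT, and Emcn had the smallest p (-0.12 ± 0.05, limma adjusted p = 0.240). With each of the 8 arrays left out in turn, Retn passed 0 times, Cd3e 1 time and Aqp1 5 times. The part of these cells in the P450 results was not tested.

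Further P450 probe sets lay outside the naming rule. Those annotated to several genes numbered 7. The set for Cyp2a5 and Cyp2a4 read 11.51 to 11.59 in SPAK KO and 11.09 to 11.48 in WT, a difference of 0.21 ± 0.09 (limma adjusted p over all probe sets = 0.296). The set for Cyp4v3 and Klkb1 differed by 0.20 ± 0.06 (limma adjusted p over all probe sets = 0.207). Cyp51, the lanosterol demethylase of cholesterol synthesis, carries no gene number after its family and read 9.14 to 9.28 in SPAK KO and 8.80 to 9.28 in WT. The pseudogene Cyp4f41-ps read 5.24 to 5.46 in SPAK KO and 5.68 to 5.85 in WT, with a difference of -0.39 ± 0.06 (limma adjusted p over all probe sets = 0.042). These 4 were chosen after their values were seen.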

How the data were processed

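Renal cortex RNA of 4 SPAK KO and 4 WT mice was measured on Affymetrix arrays. The deposited log2 values, 1 per probe set and array, come from RMA, run by the authors in the program Affymetrix Expression Console according to the submitters' processing notes. Its version and the genome build are not given in the sources used here. RMA gives no detection call, so dim probe sets have no stated floor. The table held 35556 probe sets.

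Probe sets with 1 symbol in the platform annotation gave 19938 genes, with the brightest probe set on average standing for each. The test was limma 3.58.1 under R 4.3.3 (lmFit and eBayes, genotype as the only term, 8 arrays) and called at a Benjamini-Hochberg adjusted p under 0.05; errors of differences are moderated SE. The number of arrays limits the precision.

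The P450 genes and the 15 lists of partner genes and cell markers were chosen with earlier results of these data known. Named were Stk39, all called P450 genes, the 30 with the highest mean, the smallest p in each subfamily, the 10 widest among WT arrays and, per list, each called gene or else the smallest p. Cyp11b2, Aldh1a1, Kap, Slc22a7 and Ephx2 fall outside that rule and were chosen after their values were seen. Same-numbered arrays of the genotypes correlated at -0.05, 0.08, -0.13 and 0.13 in their deviations. Numbers were not taken as pairs in the main fit, though weak correlations cannot exclude pairing. In all, 17 alternative settings were run. Promoter sequences and gene order are those of RefSeq, GRCm38.p6, whose gene table held all 82 P450 genes.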

Additional observations from a re-analysis of the deposited data

Results flagged for a closer look

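Across the named P450 genes, 100 groups of 4 arrays were tested for 1 array far from the other arrays of its genotype, by Dixon's ratio of the gap to the whole range. Chance marks about 5% of such groups, and 5 of the 100 were marked. Among SPAK KO arrays, Cyp2e1 read 13.25 on SPAK KO 4 and 13.18 to 13.19 on the others, and Cyp4f16 read 7.07 on SPAK KO 4 and 7.01 on the others. Among WT arrays, Cyp11b1 read 4.43 on WT 4 and 4.71 to 4.75 on the others. Cyp2s1 read 8.87 on WT 1 and 8.53 to 8.56 on the others, and Cyp2w1 read 6.10 on WT 1 and 5.75 to 5.77 on the others.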

How the results depend on the processing

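As reported, SPAK KO had 3 P450 genes higher and 2 lower. Centring each array on its median gave 7 higher. Counting agreeing arrays once gave 0 higher and 0 lower, and a Stk39 difference of -1.32 that limma no longer called (adjusted p = 0.751); that fit holds 1 SPAK KO sample, assumed to vary like WT. Leaving out 1 array at a time gave 1 (without SPAK KO 1) to 4 (without WT 4) higher P450 genes and 2 to 3 lower. Cyp4a12a, Cyp4a12b and Cyp26b1 were called in all 8 such fits, Cyp2c23 in 7 and Cyp4a31 in 1. Cyp4a14 ranged from -0.0049 (without WT 4) to 0.41, and the cause was not tested. Of 50 named P450 genes, 17 had a difference smaller than its SE and are given no direction, and of the other 33 only Cyp4a14 turned its sign in any of the 17 settings.

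With the number in the titles as a replicate block, 3 P450 genes were higher and 2 lower, and 129 genes were higher and 45 lower over all genes, against 278 and 136 without it. Ppara, Retn and Cd3e were not called with the block. Cd3e was also not called with centred arrays (limma adjusted p = 0.085) or with quantile normalization (limma adjusted p = 0.093). Over all genes, trend and robust options gave 526 and 241, and leaving out genes with a mean under 6 gave 462 and 202 of 12001; both added Cyp4a10. With no detection calls, signal over background cannot be given, and differences of dim genes may be understated.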
